A study of Mus musculus with 22 samples.

Results

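The change in mRNA that cultured mouse cortical neural stem cells (NSCs) of embryonic day E12.5 made when given 4-hydroxytamoxifen (4-OHT), and that a line without Cre shared with a line carrying Cre, was measured in 4 RNA-Seq libraries of the 22 RNA-Seq and Ribo-Seq libraries of the series. The libraries were taken by their labels: C1 cells untreated, C1 cells with 4-OHT, C4 cells untreated and C4 cells with 4-OHT, 1 library each, with 48 hours as the labelled time. Both lines are floxed at Msi1 and at Msi2, the genes of the Musashi RNA-binding proteins. C1 cells lack Cre, and C4 cells carry a Tamoxifen-inducible Cre, whose promoter is not given in the sources used here. Each line is 1 line of cells, so the lines were the repeats. In fits of these lines alone p-values measure only the spread between them, moderated across genes. Fits that also held other lines took part or all of their spread from those. The dose of 4-OHT and what the untreated cells received are not given in the sources used here, so 4-OHT and its solvent cannot be told apart.

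4-OHT is the active metabolite of tamoxifen and binds the oestrogen receptors. In cells with a fusion of Cre to a mutant receptor it is used to switch Cre on, and changes that appear in cells without Cre do not depend on recombination. Tamoxifen and its metabolites are also known to bind the sterol isomerase Ebp and other proteins of cholesterol synthesis and transport. Cells sense sterols through Scap and the Insig proteins, which hold the SREBP factors in the endoplasmic reticulum while sterols are plentiful. When sterols fall, SREBP2 (gene Srebf2) moves to the nucleus and raises the mRNAs of the cholesterol enzymes. When sterols are plentiful, the LXR receptors, which bind oxidised sterols, raise the cholesterol exporter Abca1 and the lipid carrier Apoe.

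The 4 libraries held 45750593 to 58435172 counted reads. Msi2 was at 51.5 RPKM (read count per length and depth) in untreated and 66.0 in treated C1 cells, and at 39.5 and 4.54 in C4 cells, so it was low in the treated C4 library alone. Msi1 was at 27.0 and 23.2 RPKM in C1 cells and at 9.46 and 9.42 in C4 cells, a log2 ratio of -0.01 in C4 with a 95% counting interval of -0.15 to 0.14. The Msi1 reads thus did not check the label of the treated C4 library, while the Msi2 reads went with it. Which exons are floxed and which bases were counted was not established here. All 9 neural stem cell markers found in the files were above 1 RPKM, and their summed level was 5204 to 5695 RPKM in the 4 libraries. Markers of glia were also well detected: 6 astrocyte markers summed to 593 to 767 RPKM and 6 oligodendrocyte lineage markers to 595 to 866, with Olig1 alone at 331 to 543. The 5 endothelial markers summed to 0.242 to 0.363 RPKM. The 6 microglial markers summed to 3.48 to 4.99 RPKM, with 1 of them above 1 RPKM. Of these Aif1, Cx3cr1 and Tyrobp were listed at 0 in all 4 libraries, which is not evidence that they are silent, as given below.

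Hmgcs1, the enzyme that makes HMG-CoA for cholesterol synthesis, could not be followed in mRNA. It has 2 gene identifiers in the files, and both were listed at 0 reads in every RNA-Seq library. Idi1, a later enzyme of the same pathway, was also listed at 0. Of the 22623 genes listed, 5134 were at 0 in every RNA-Seq library, and 200 of these had more than 100 footprints in untreated C1 cells, so a 0 in these files is not evidence of a silent gene. Ribo-Seq, which counts ribosome footprints, gave Hmgcs1 6413 and 3039 footprints in untreated and treated C1 cells and 1679 and 1956 in C4 cells, the same numbers under both identifiers. Scaled between libraries, this was a log2 change of 0.52 with an SE of 0.16, which did not pass the test described next (adjusted p = 0.247).

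Both lines together, 4-OHT raised 365 of 11626 genes tested (3.14%) and lowered 274 (2.36%), by edgeR's quasi-likelihood test with the line as a block and an adjusted p under 0.05. The median log2 change of all genes tested was -0.00. In C1 cells and in C4 cells each of these 639 genes had the same sign, which is no separate evidence of agreement. The test favours it, since a gene of opposite signs in the lines has a small shared change and a large spread. The genes that rose had a median log2 RPKM ratio of 0.44 in C1 and 0.70 in C4, and 338 of them (92.6%) moved more in C4. The genes that fell had medians of -0.40 and -0.54, and 193 of them (70.4%) moved more in C4. Single-line ratios are not centred unless stated, and their median over all genes tested was -0.00 in C1 and 0.07 in C4. This offset adds to rises in C4 and takes from falls there. Without the line as a block no gene passed, with 1124 genes at an unadjusted p under 0.05, and limma-voom and DESeq2 with the block called 634 and 514. Leaving out the C1 pair left 422 genes past the threshold, and leaving out the C4 pair left 30, with the spread then taken from the other E12.5 libraries.

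The lines were also set side by side without a test. Over 11621 genes the log2 ratios in C1 and in C4, which share no library, had a Pearson r of 0.48 and a Spearman rho of 0.44, as a description across genes, which are not independent. After centring each line on its median, 65.3% of these genes had the same sign in both lines. Of the 422 genes called when the C1 pair was left out of the test, 417 were also among these 11621. Of the 275 of them that rose in C4, 262 (95.3%) were higher in treated C1 cells, with a median of 0.45 there. Of the 142 that fell, 133 (93.7%) were lower in C1, with a median of -0.32. The 23 genes that rose and the 7 that fell in C1 without the C4 pair all moved the same way in C4, with medians of 1.05 and -0.98.

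**Figure D1:**
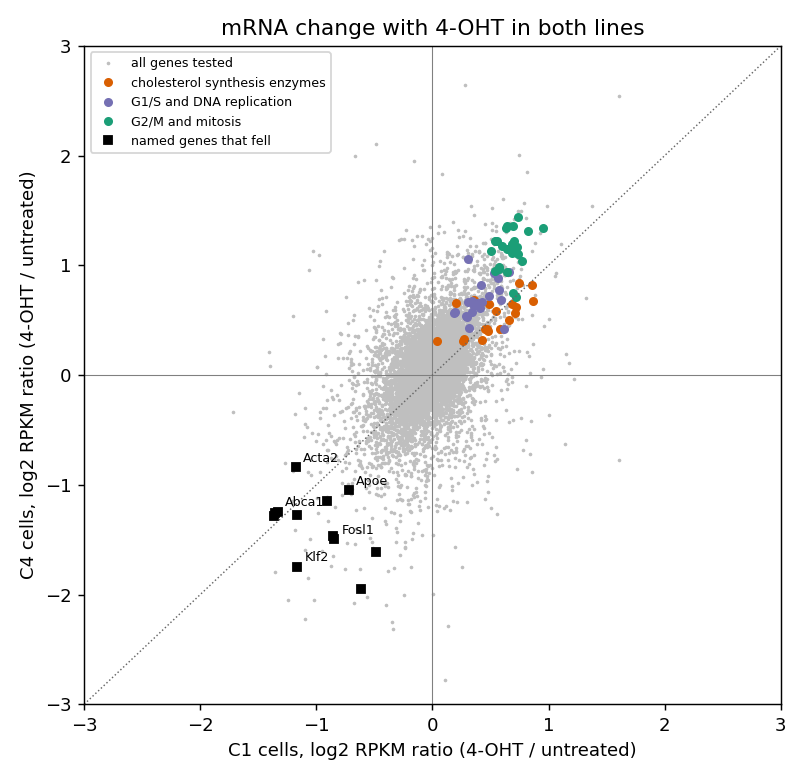
Each point is 1 gene, with its log2 RPKM ratio of 4-OHT to untreated cells in C1 (horizontal) and in C4 (vertical), and the dotted line marks equal change. Members of the cholesterol, G1/S and G2/M lists lie above 0 on both axes, the G2/M genes mostly above the dotted line, and Abca1, Apoe, Klf2 and other named genes that fell lie below 0 on both. The axes stop at 3, which leaves 1 gene, Msi2, outside.

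At a fold limit per line, with 0.5 added to each RPKM and a mean of at least 1 RPKM, 81 genes rose and 74 fell at least 1.5-fold in C1, and 428 and 222 in C4. Of 10928 genes, 56 (0.512%) rose and 29 (0.265%) fell past this limit in both lines, and 7 went past it in opposite directions. The 56 are 69.1% of the rises in C1 and 13.1% of those in C4. At 2-fold no gene rose in both lines, and 6 fell in both: Abca1, Fas, Fhl2, Klf2, Tagln and Cntnap2, the last of which is named after its value was seen. Cntnap2, a neural adhesion protein, had 241 and 92 reads in C1 cells and 372 and 202 in C4 cells.

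Cholesterol synthesis enzymes rose in both lines. Of 21 enzymes listed 19 could be tested in mRNA, and 15 rose while none fell, against 3.14% and 2.36% of all genes tested. The median log2 change was 0.48 over the 19 and -0.00 over all genes. In all 19 both treated libraries were above both untreated libraries, which held for 25.8% of all genes tested. The median was 0.49 in C1 and 0.57 in C4, beside -0.00 and 0.07 over all genes, and 8 of the 19 changed more in C4. Leaving out the C1 pair left 7 of the enzymes past the threshold, and leaving out the C4 pair left 5.

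Nsdhl, a decarboxylating enzyme of the late pathway (ENSMUSG00000031349, chrX:70163896-70203853, NCBIM37), rose most in this group. It was at 21.8 and 39.4 RPKM in untreated and treated C1 cells and at 27.4 and 48.2 in C4 cells, a fitted log2 change of 0.80 (SE 0.07, adjusted p = 0.00287). Both treated libraries were above both untreated ones, by nearly the same ratio in each line. Mvk, the kinase that phosphorylates mevalonate, went from 16.9 to 28.3 RPKM in C1 and reached 39.4 in C4, where its log2 RPKM ratio was 0.84, a fitted log2 change of 0.76 (SE 0.07). Fdps, which makes farnesyl diphosphate (ENSMUSG00000059743, chr3:88897514-88905881), went from 20.3 to 37.1 RPKM in C1 and from 28.8 to 46.0 in C4, a log2 change of 0.74 (SE 0.08). These members cover the mevalonate, isoprenoid and sterol stages of the pathway.

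At the branch point to sterols, Fdft1, squalene synthase, rose by 0.63 on the log2 scale, and Lss, which closes the sterol rings, by 0.64. Sqle, squalene epoxidase, was at 100 and 137 RPKM in C1 and at 110 and 148 in C4, a log2 change of 0.40. Of the earlier steps, Acat2, which joins acetyl-CoA units, rose by 0.60, and Mvd, which makes isopentenyl diphosphate, by 0.53. All of these had higher levels in both treated libraries.

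In the conversion of lanosterol to cholesterol, Cyp51 rose by 0.54, Sc4mol (Msmo1), a methyl sterol oxidase, by 0.46, Tm7sf2, a sterol reductase, by 0.48 and Sc5d, a desaturase, by 0.41 on the log2 scale. Dhcr7, a late reductase of the pathway, rose by 0.53. Sc4mol had the highest level of the list, 138 and 205 RPKM in C1 and 173 and 232 in C4. Ebp, the isomerase named above as a binding protein of tamoxifen, was at 14.9 and 17.2 RPKM in C1 and at 12.6 and 19.8 in C4, a log2 change of 0.39 that did not pass (adjusted p = 0.0789). The other members that did not pass were Lbr at 0.27, Hsd17b7 at 0.25 and Pmvk at 0.14.

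**Figure D2:**
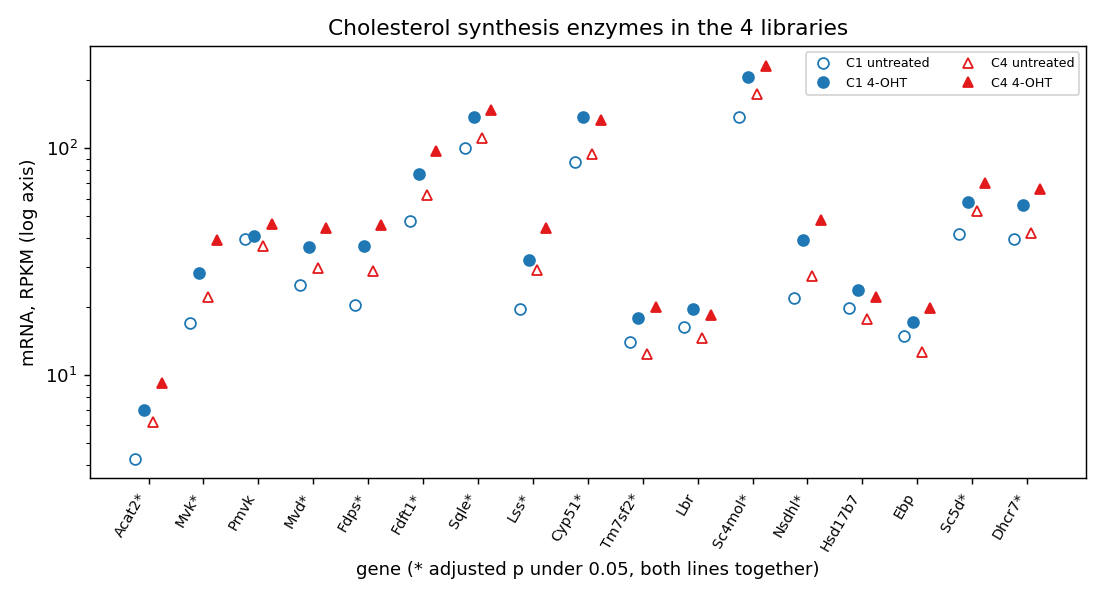
RPKM on a log axis of 17 of the 19 cholesterol enzymes tested, in the 4 libraries (circles C1, triangles C4, filled with 4-OHT), in pathway order. Filled symbols are above open ones in each line for every gene, and an asterisk marks the 13 of those shown with an adjusted p under 0.05.

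Among the genes of sterol sensing, uptake and transport 6 of 14 tested rose and none fell, against 3.14% and 2.36% of all genes tested. The list's median was 0.12. Stard4, a carrier of cholesterol between membranes, went from 17.1 to 29.0 RPKM in C1 and from 18.9 to 35.4 in C4, a log2 change of 0.80 (SE 0.08, adjusted p = 0.00433). Insig1 rose by 0.42, Tmem97, a regulator of Npc1, by 0.45, Scarb1, a receptor for HDL, by 0.35, and Srebf2 itself by 0.26. The treated libraries were the highest for each of these 5 genes.

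The members that did not pass were, in log2 change, Vldlr at 0.16, Lrp8 at 0.09, Mbtps1, which cleaves the SREBP factors, at 0.09, Scap at 0.06, Npc1 at -0.02, Insig2 at -0.07, Npc2 at -0.09 and Srebf1 at -0.23. Srebf1, the factor linked to fatty acids, was at 42.4 and 37.9 RPKM in C1 and at 40.2 and 34.3 in C4, with an adjusted p of 0.0792. Mbtps2 was not analysed here.

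Of 18 genes of fatty acid synthesis tested 4 rose and none fell, against 3.14% and 2.36% of all genes tested. The list's median was 0.04. Scd1, a desaturase, rose by 0.40, Elovl6, an elongase, by 0.38, Aacs, which makes acetoacetyl-CoA, by 0.30 and Acly, which makes cytosolic acetyl-CoA, by 0.26 on the log2 scale. Fasn, the fatty acid synthase, was at 77.1 and 74.3 RPKM in C1 and at 85.5 and 77.5 in C4, a log2 change of -0.13 (adjusted p = 0.268). Scd2, the main desaturase mRNA here, was at 494 and 485 RPKM in C1 and at 497 and 554 in C4. Their log2 changes spanned -0.21 for Fads2 to 0.55 for Lpin1, a phosphatidate phosphatase, neither of which passed. The others, Acss2 at 0.06, Acacb at 0.00, Elovl5 at 0.08, Fads1 at -0.03, Me1 at -0.18, Mid1ip1 at -0.03, Gpam at -0.17, Pnpla3 at 0.14, Slc25a1 at 0.05 and Acsl3 at 0.00, did not pass either.

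Of 9 LXR receptors and targets tested 2, Abca1 and Apoe, fell and none rose, against 2.36% and 3.14% of all genes tested. The list's median was -0.23. The other 7, among them the receptors Nr1h2 and Nr1h3 with log2 changes of 0.04 and 0.28, did not pass. Abca1 (ENSMUSG00000015243, chr4:53043659-53172767) was at 63.8 and 25.3 RPKM in C1 and at 70.0 and 29.5 in C4, a log2 change of -1.32 (SE 0.06, adjusted p = 5.0e-05), the smallest p of all genes tested. Apoe (ENSMUSG00000002985, chr7:20281458-20284515) was at 1436 and 871 RPKM in C1 and at 1480 and 714 in C4, a log2 change of -0.92 (SE 0.09, adjusted p = 0.00359). In both genes the untreated libraries of the lines lay close to each other and the treated ones far below.

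Sequences were read to see which letters the promoters of members that moved together share. In the promoters of RefSeq (GRCm38.p6), 250 bases before to 50 bases after each start, 16 of the 21 cholesterol enzymes were matched, and 11 of the 16 genes of sterol sensing. CACNCCAC, the core of a sterol regulatory element, was in the promoters of Hmgcs1 and Acat2 (2 of 16 enzymes, against 7.12% of 27025 genes with a promoter) and, in the other list, of Insig1 (9.09% of 11). TCACGTGA, an E-box form that SREBP also binds, was in none of either list, against 1.12% of all genes. CCAAT, the box bound by NF-Y, a factor that acts with SREBP2 and also at mitotic genes, was in 15 of the 16 enzymes (93.8%) and 7 of the 11, against 41.1% of all genes. Each motif was searched on both strands and counted separately, overlaps allowed. A match describes these letters and not a bound site.

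Windows of 100 bases that held most of these motifs are printed for 2 cholesterol genes, Hmgcs1 (chr13:119690131-119690230, plus strand) and Nsdhl (chrX:72918461-72918560, plus strand), and for 2 mitotic genes that are described next, Mki67 (chr7:135716510-135716609, minus strand) and Cdc20 (chr4:118437344-118437443, minus strand), all on GRCm38.p6 and 5′ to 3′ in the direction of the gene. Capitals mark CCAAT, its reverse complement ATTGG and, in Hmgcs1, the sterol element core near the right end. Fdps has no entry.
Hmgcs1: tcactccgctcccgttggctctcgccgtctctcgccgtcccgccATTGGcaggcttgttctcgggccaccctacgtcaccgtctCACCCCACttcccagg
Nsdhl: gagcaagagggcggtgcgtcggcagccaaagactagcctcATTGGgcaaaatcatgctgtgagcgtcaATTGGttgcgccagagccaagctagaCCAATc
Mki67: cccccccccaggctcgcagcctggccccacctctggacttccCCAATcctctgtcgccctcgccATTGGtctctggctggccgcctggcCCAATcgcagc
Cdc20: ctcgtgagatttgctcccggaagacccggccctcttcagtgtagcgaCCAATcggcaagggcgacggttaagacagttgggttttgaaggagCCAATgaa
Nsdhl and Mki67 each hold 3 CCAAT boxes in this window, Cdc20 holds 2 and Hmgcs1 holds 1. Mitotic genes shared the box: it was in 17 of the 19 promoters matched of the G2/M list (89.5%) and in 13 of 18 of the G1/S list (72.2%), while the sterol element core was in none of the 19. The search of the cell cycle lists was added after the data were seen.

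Genes of the cell cycle rose as well. Of 24 genes of G2 and mitosis 23 rose and none fell, with a median of 0.87. Of 23 genes of G1/S and DNA replication 18 rose and none fell, with a median of 0.49. Among all genes tested 3.14% rose and 2.36% fell. In every member of both lists the treated libraries were above the untreated ones. The G2/M median was 0.68 in C1 and 1.17 in C4, and 23 of the 24 changed more in C4. The G1/S median was 0.39 and 0.66, and 22 of the 23 changed more in C4. Leaving out the C4 pair left 10 of the G2/M and 1 of the G1/S genes past the threshold, and leaving out the C1 pair left 8 of the G1/S genes.

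Mki67, the proliferation antigen (ENSMUSG00000031004, chr7:142881471-142908062), was at 12.1 and 21.3 RPKM in C1 and at 11.8 and 29.3 in C4, a log2 change of 1.03 (SE 0.09, adjusted p = 0.00298). Birc5, survivin, rose by 1.11, Plk1, a kinase of mitotic entry and exit, by 1.05 and Kif20a, a kinesin of cytokinesis, by 0.99 on the log2 scale. Plk1 went from 10.5 to 17.6 RPKM in C1 and its log2 RPKM ratio was 0.74 in C1 and 1.44 in C4. Ccnb1, the one member that did not pass, was under 1 RPKM in every library, with a log2 change of 0.69. In the replication list, Rrm2, a subunit of ribonucleotide reductase, rose by 0.76, Uhrf1, which maintains DNA methylation, by 0.69, Ccne1, cyclin E1, by 0.64 and Gins2, part of the replicative helicase, by 0.64.

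The 10 largest rises by the rule for named genes were Palmd, Kcnc4, Slfn9, Pttg1, Neil3, Fam64a, Pif1, Plk1, Mki67 and Ska1, with log2 changes of 1.01 to 1.33. Pttg1, securin, went from 12.9 to 22.3 RPKM in C1 and from 6.44 to 19.1 in C4. Neil3, a DNA glycosylase, went from 0.905 to 1.95 RPKM in C1 and from 0.979 to 2.24 in C4, nearly the same ratio in both lines. Palmd went from 0.731 to 1.29 RPKM in C1 and from 1.15 to 4.16 in C4, and Kcnc4, a potassium channel subunit, from 1.54 to 2.57 and from 1.01 to 4.07. Ska1, which tethers kinetochores, and Pif1, a helicase, rose by 1.01 and 1.07 in the fit.

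Among the 10 largest falls were Klf2, Fas, Tagln, Abca1, Fhl2, Klhdc8a, Fosl1, Synpo2 and 2610034M16Rik. Klf2, a zinc finger factor (ENSMUSG00000055148, chr8:74842932-74845555), was at 10.6 and 4.73 RPKM in C1 and at 13.9 and 4.14 in C4, a log2 change of -1.49 (SE 0.15, adjusted p = 0.00364). Fas, the death receptor, was at 27.8 and 10.8 RPKM in C1 and at 14.4 and 5.91 in C4, a log2 change of -1.36. Tagln, an actin-binding protein of contractile cells, was at 30.4 and 11.9 RPKM in C1 and at 40.7 and 17.1 in C4, a log2 change of -1.34. In Klf2 and Tagln both treated libraries were well below both untreated ones, while for Fas the untreated C4 level lay close to the treated C1 level.

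Fosl1, an AP-1 subunit, fell by 0.84 in C1 and by 1.49 in C4 on the log2 scale, and Klhdc8a by 0.86 and 1.47. Fhl2, a LIM-domain protein, and Synpo2, an actin-bundling protein, fell by 1.26 and 1.06 in the fit. Acta2, smooth muscle actin, from the mesenchymal list, was at 127 and 56.1 RPKM in C1 and at 79.6 and 44.4 in C4, a log2 change of -1.04 (adjusted p = 0.000995). The other mesenchymal markers, Col1a1, Col1a2, Col3a1, Dcn, Lum, Pdgfrb and Twist1, were each below 1 RPKM in all 4 libraries, so Acta2 made up nearly the whole sum of that list, 127 RPKM in untreated and 56.5 in treated C1 cells and 81.4 and 45.9 in C4 cells.

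**Figure D3:**
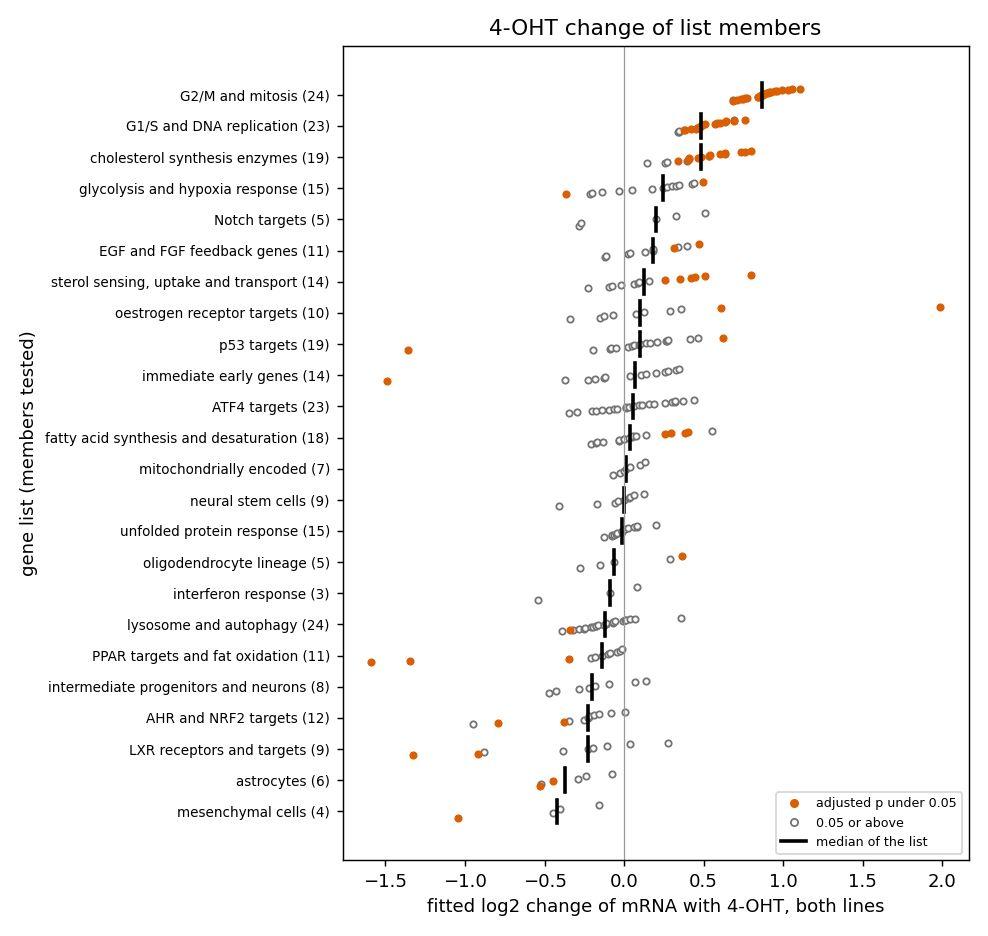
Fitted log2 change with 4-OHT, both lines together, of each tested member of the lists with at least 3 members tested (number tested in brackets), ordered by the list's median (black bar), with filled points for an adjusted p under 0.05. The G2/M, G1/S and cholesterol lists have medians of 0.87, 0.49 and 0.48, and the other medians lie between -0.42 and 0.25.

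The receptors that 4-OHT is known to bind were scarce. Esr2 was below 0.2 RPKM in every library, and Esr1 was at 0.024 and 0.021 RPKM in C1 cells and at 0.82 and 0.68 in C4 cells, which carry the Cre. Whether some of the C4 reads came from the Cre construct was not tested. Of 10 oestrogen receptor targets tested 2 rose and none fell, against 3.14% and 2.36% of all genes tested. The list's median was 0.10. Car12, a carbonic anhydrase, went from 0.263 to 0.803 RPKM in C1 and from 0.161 to 0.938 in C4, a log2 change of 1.99, and Igfbp4, which binds insulin-like growth factors, rose by 0.61. Of the others, Greb1 and Ccnd1 were at log2 changes of 0.12 and 0.29 and did not pass.

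Stress lists are given with the members that passed, beside 3.14% of all genes tested that rose and 2.36% that fell. None of 23 ATF4 targets and none of 15 genes of the unfolded protein response passed, with medians of 0.06 and -0.01. Of 12 targets of AHR and NRF2 tested 2 fell, Hmox1, haem oxygenase, by 0.79 and Gstm1 by 0.38 on the log2 scale, and the list's median was -0.23. Of 19 p53 targets Fas fell and Trp53inp1 rose by 0.62. Of 24 lysosomal genes Sqstm1 alone passed and fell by 0.34, and of 11 PPAR targets 3 fell, among them Angptl4 by 1.59 and Plin2 by 0.35, the first of them below 1 RPKM in every library.

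Lists of growth and signalling genes are likewise given beside 3.14% of all genes tested that rose and 2.36% that fell. Dusp6 and Spry4, feedback inhibitors of growth factor signalling, rose by 0.47 and 0.31 on the log2 scale, as 2 of 11 tested. Fosb alone of 14 immediate early genes passed and fell by 1.49, from under 1 RPKM. Hk2, a hexokinase, rose by 0.50 and the glucose carrier Slc2a1 fell by 0.37, of 15 glycolytic and hypoxia genes tested. None of 5 Notch targets and none of 3 interferon genes tested passed.

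Cell type markers are given list by list, beside 3.14% of all genes tested that rose and 2.36% that fell. None of 9 neural stem cell markers and none of 8 neuronal markers passed, with medians of 0.00 and -0.20. Of 6 astrocyte markers Aqp4, the water channel, fell by 0.53 and Gja1, connexin 43, by 0.44, with a median of -0.37 over the 6, and Acta2 of the mesenchymal list fell as given above (median of 4 tested members -0.42). Olig1 rose by 0.36, the 1 of 5 oligodendrocyte lineage markers that passed. The astrocyte markers summed to 690 and 593 RPKM in untreated and treated C1 cells and to 767 and 605 in C4 cells. Fewer cells of a type and less RNA per cell cannot be told apart in these bulk samples, and the part of a change in cell composition or in the share of dividing cells was not tested.

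The change with 4-OHT was compared with that of another inducer, doxycycline (Dox, 1 µg/ml for 72 hours), in 6 libraries of 3 other E12.5 lines: KH2 cells, which carry no Msi transgene, and cells with an inducible Msi1 or Msi2. These 10 libraries entered 1 fit with the line as a block. The log2 change with 4-OHT was higher than that with Dox for 221 of 12439 genes (1.78%) and lower for 79 (0.635%). The Dox change in this fit pools KH2 cells with the cells that induce Msi1 or Msi2, and 7 genes passed for it. All 24 G2/M genes and 15 of the 19 cholesterol enzymes were higher with 4-OHT, and 5 of the 23 G1/S genes. The median Dox change was -0.12 for G2/M, -0.27 for the cholesterol enzymes and 0.03 for G1/S, so part of the difference for the enzymes lies on the Dox side. With the Dox change taken from KH2 cells alone, 11 genes passed. Inducer, induced Msi gene, time, line and sequencing depth (7889966 to 22248145 reads in the Dox libraries) cannot be told apart here.

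For Fdps the log2 change was 0.74 with 4-OHT in its own fit and -0.55 with Dox, a difference of 1.29 (adjusted p = 0.00228). Abca1 and Apoe had Dox changes of 0.56 and 0.67, and their differences of -1.88 and -1.60 passed (adjusted p = 0.000442 and 0.00282). Mki67 had a Dox change of -0.14 and a difference of 1.17. Klf2 fell in the fit of 4-OHT and had a Dox change of -0.21, and its difference of -1.28 did not pass (adjusted p = 0.0832).

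**Figure D4:**
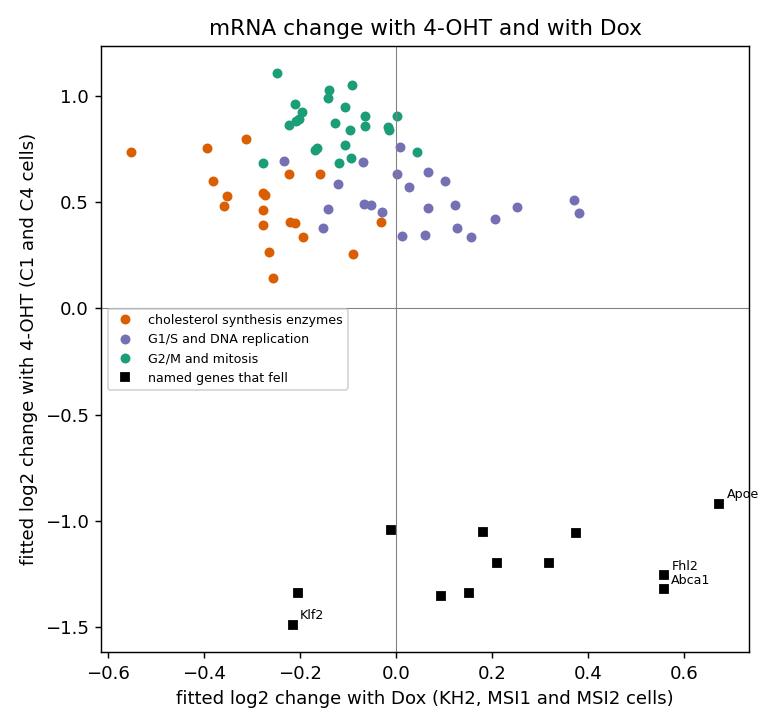
Fitted log2 change with Dox in the 3 other E12.5 lines (horizontal) and with 4-OHT in C1 and C4 (vertical) of cholesterol, G1/S and G2/M list members and of the named genes that fell. Cholesterol enzymes lie to the left of 0 with a median Dox change of -0.27, G2/M genes around -0.12, and Abca1 and Apoe at 0.56 and 0.67.

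Whether the change differed between C4 and C1 was tested in a fit of the same 10 libraries. C1 and C4 each had their own 4-OHT change in it, so the spread came from the Dox responses of the other lines. No gene of 12439 passed by edgeR's quasi-likelihood test, with 495 at an unadjusted p under 0.05, and 35 passed when genes of low count were kept. The median difference of C4 minus C1 was 0.42 for G2/M, with 12 of 24 members at an unadjusted p under 0.05, and -0.11 for the cholesterol enzymes, with 0 of 19. Msi2 had a log2 difference of -3.55 (SE 0.89), which did not pass. The lines that gave the spread included the cells with the Dox-induced Msi2 transgene. Lpin1 had log2 RPKM ratios of 0.15 in C1 and 1.03 in C4, a log2 difference of 0.81 (SE 0.17) with an unadjusted p of 0.000334 that did not pass either. With 1 library per condition this test cannot show that the lines respond alike.

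Footprints of the same 4 conditions were a separate set of libraries, with 1675192 to 6381242 counted reads. By the same test 84 of 9705 genes (0.866%) rose and 11 (0.113%) fell. Of the 365 genes that rose in mRNA 323 were tested in footprints, and 292 of them (90.4%) had a positive log2 change there, with a median of 0.46. Of the 274 that fell 224 were tested and 199 (88.8%) were negative, with a median of -0.44. Over all genes tested in footprints the median was -0.00. The calls themselves overlapped in 6 rises, 1.64% of those in mRNA and 7.14% of those in footprints. Of all genes tested, 0.866% rose in footprints and 3.14% in mRNA. They overlapped in 9 falls, 3.28% of those in mRNA and 81.8% of those in footprints. Of all genes tested, 0.113% fell in footprints and 2.36% in mRNA. Total counts in place of scaled ones gave 76 calls in footprints, and without the line as a block there were none, with 446 at an unadjusted p under 0.05.

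The 6 genes that rose in both were Nsdhl, Fdps, Sc4mol, Cdc20, Mki67 and Nudt4, a diphosphoinositol phosphohydrolase, and 3 of them are cholesterol enzymes. Nsdhl had 297 and 224 footprints in untreated and treated C1 cells and 81 and 143 in C4 cells, a scaled log2 change of 1.15 (SE 0.24, adjusted p = 0.0276). Fdps and Sc4mol had log2 changes of 0.80 and 0.91 in footprints. Over the 21 cholesterol enzymes tested in footprints the median was 0.48, with 19 of them positive and 3 past the threshold. The 24 G2/M genes had a footprint median of 0.87, with 23 positive and 2 past the threshold, and the 23 G1/S genes a median of 0.36 with none past it.

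Of the falls, Abca1 had 9627 and 883 footprints in C1 cells and 2549 and 716 in C4 cells, a scaled log2 change of -1.70 (SE 0.17, adjusted p = 0.000379). Tagln fell by 1.95, 2610027L16Rik by 0.92, Prss23, a serine protease, by 0.90, Apoe by 0.87 and Acta2 by 0.84 on the log2 scale. Cav1 and Soat1 also fell in both and were outside the rule for named genes. These footprint counts in C1 differ in depth by library, so the log2 changes and not the raw counts are to be compared.

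Mitochondrially encoded genes differed between the readouts. Of 13 tested in footprints 7 rose and all 13 were positive, with a median of 1.20, and of the 7 counted in mRNA none passed, with a median of 0.01. In mt-Cytb, cytochrome b, the log2 change was 1.25 in footprints (adjusted p = 0.0183) and 0.04 in mRNA. In mt-Nd6 it was 1.18 (adjusted p = 0.00121) and 0.13. The other 6 mitochondrial genes were listed at 0 in mRNA.

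**Figure D5:**
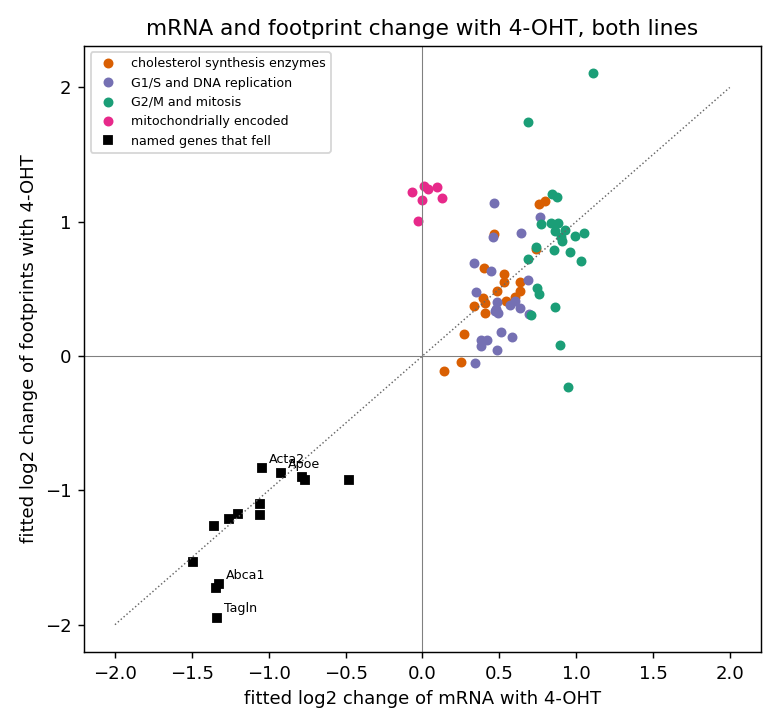
Fitted log2 change of mRNA (horizontal) and of footprints (vertical) with 4-OHT, both lines together, with the dotted line marking equal change. Cholesterol and G2/M genes and the named genes that fell lie near the line, with footprint medians of 0.48 and 0.87 for the first 2 lists, while the 7 mitochondrial genes lie near 0 in mRNA and at 1.00 to 1.27 in footprints.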

How the data were processed

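The submitters' processing notes name mm9, Bowtie and TopHat, with no versions or roles given. The authors deposited raw read counts for each Ensembl gene, not normalized. The authors also deposited RPKM values, in which the count is divided by a length and by a library total exceeding the sum of the counts (the counts were 32.1 to 34.1% of it in the 4 libraries). Groups came from the labels.

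Counts were tested with edgeR (4.0.16, R 4.3.3): TMM, genes with a CPM of at least 1 (footprints 5) in at least 2 libraries, line as block, quasi-likelihood test, Benjamini-Hochberg adjustment, threshold 0.05. The 4 libraries leave 1 residual degree of freedom, moderated across genes (biological coefficient of variation 0.0765, prior degrees of freedom 7.59). Single-line changes are log2 RPKM ratios with nothing added and 95% counting intervals (delta method), which cover counting error only. With 1 library per line and treatment no test was made within a line, and at 45750593 to 58435172 reads per library counting error was small for all but low genes.

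The members and the 27 gene lists were chosen with earlier results of these data known. Named genes were Msi1, Msi2 and Hmgcs1, all members of the 3 lipid lists, up to 4 called members of each other list, the 10 largest rises and falls with a mean CPM of at least 5 and the same sign in both lines, and up to 5 per direction called in mRNA and footprints. Each test was run on simulated counts with known changes, which checks the code and not the error rates in these data. Alternatives were DESeq2 (1.42.0), limma (3.58.1), other scalings and filters, wider fits and left-out pairs. Python 3.11.15, pandas 2.3.3 and matplotlib 3.10.9 were used. Gene coordinates are those of the GENCODE annotation of NCBIM37. Promoters are RefSeq's. Some members that enter the counts and medians are not reported here by name.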

Additional observations from a re-analysis of the deposited data

Results flagged for a closer look

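Several of the named genes had uncentred log2 RPKM ratios of opposite sign in the lines, each with a 95% counting interval that excluded 0. None passed the test of the difference between C4 and C1. Msi2 had a log2 RPKM ratio of 0.36 in C1 cells and -3.12 in C4 cells, whose Msi genes are floxed in the presence of Cre, and the test of this difference gave an adjusted p of 0.549 by edgeR. Npc2, a lysosomal carrier of cholesterol, had -0.22 in C1 and 0.10 in C4. Scd2 had -0.03 and 0.16, Fads1 -0.0505 and 0.0522, and Mid1ip1 0.0818 and -0.0812. The last 4 differences are small, and counting intervals cover counting error only. After each line was centred on its median, 65.3% of 11621 genes had the same sign in both lines, so opposite signs were common. Over all genes tested the median ratio was -0.00 in C1 and 0.07 in C4. Fads1 in C4 thus lay below the median of its line, while Npc2 and Scd2 lay above it.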

How the results depend on the processing

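Every named gene past the threshold kept its direction under each alternative that tested it. The shared response called 639 genes (365 higher, 274 lower). Without a filter on low counts it called 1254 (692 and 562), without the line as a block 0 (0 and 0, as well as 0 cholesterol, G1/S and G2/M genes), in the fit of all RNA-Seq libraries 244 (185 and 59), and in the fit of the 10 E12.5 libraries 169 lower. In the fit of all RNA-Seq libraries 7 cholesterol and 7 G1/S genes rose. Leaving out the pair of either line gave 30 to 422 genes, 23 to 278 higher and 7 to 144 lower, with 5 to 7 cholesterol, 1 to 8 G1/S and 10 to 23 G2/M genes higher. Leaving out a pair tests 1 line against the spread of the others. The comparison with Dox called 300 genes (221 and 79), 723 (450 and 273) without a filter and 11 (3 and 8) with Dox from KH2 cells alone. The difference between C4 and C1 called 35 genes (20 and 15) without a filter. Footprints called 179 genes (141 and 38) without a filter and 0 (0 and 0) without the block. At 1.5-fold in both lines, 87 genes rose and 49 fell with a pseudocount of 0.1, and 23 and 18 with 2. The causes were not tested, other than that without a filter more genes were tested. Of the 75 named genes past the threshold 75 lost it without the line as a block, 59 without the C4 pair and 27 without the C1 pair. Depth limits the genes of lowest count.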
